A study of Mus musculus with 6 samples.

Results

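The star-strand entries of a mouse microRNA array are the subject here: the 112 microRNA entries whose mouse names end in an asterisk, out of 577 microRNA entries on each array. They were taken by name, with miR-483* and miR-877* not counted among them. For 101 of the 112 the array also holds the main arm of the same hairpin, which is the entry of the same name without the asterisk, and for 11 it does not. The 6 one-colour arrays, 2 per group, measured total RNA of oocytes pooled by diameter from the ovaries of C57BL/6 mice. The group called young large here holds oocytes 60 to 80 µm across from mice 6 to 8 weeks old. The group called aged large holds oocytes of that same size class from mice 41 to 43 weeks old, or 42 to 44 in the sample descriptions. The group called young small holds oocytes 20 to 50 µm across, again from mice 6 to 8 weeks old. The titles call the large oocytes growing and the small ones non-growing. The number of animals in a pool is not given, and the series text speaks of samples run in duplicate, so p-values speak for array-to-array spread alone, and that may be technical.

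A microRNA hairpin is cut by Drosha in the nucleus and by Dicer in the cytoplasm into a short duplex. One strand of the duplex is usually kept in an Argonaute protein and guides it to messenger RNAs, while the other is released and degraded. Older miRBase releases marked the strand thought to be minor with an asterisk. Later releases name both strands by their arm, -5p or -3p, because either can be the one that is kept. Growing mouse oocytes are known for weak microRNA silencing beside a strong endogenous siRNA pathway, which shares Dicer with it.

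The sequences of the detected star entries come first, because the arm behind each old name decides how it is read. Of the 12 star entries whose values on every array or range over arrays are described one by one below, 10 were matched to mature sequences in RefSeq on GRCm38.p6 under their later arm names; miR-467b* and miR-712* are named only. Seeds, bases 2 to 8, are in capitals.
miR-140* (miR-140-3p): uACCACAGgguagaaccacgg
miR-150* (miR-150-3p): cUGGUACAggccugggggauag
miR-140* lies at chr8:107551288-107551308 on the + strand, within the span of the gene Wwp2. miR-150* lies at chr7:45121798-45121819 on the + strand and overlaps no other gene in the RefSeq table. The 70-base hairpin of miR-140, with the star arm in capitals at positions 45 to 65, shows that the star arm is the 3′ side of the stem.
Mir140 hairpin: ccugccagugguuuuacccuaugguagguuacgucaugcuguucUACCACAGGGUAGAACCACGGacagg

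A further 5 star entries, none detected on any array, had the highest signals among the undetected ones. They are shown because 4 of them fall into 2 shared seeds, while miR-17* has a seed of its own among them.
let-7b* (let-7b-3p): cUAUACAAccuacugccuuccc
let-7f* (let-7f-1-3p): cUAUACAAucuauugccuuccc
miR-30a* (miR-30a-3p): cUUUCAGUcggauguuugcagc
miR-30e* (miR-30e-3p): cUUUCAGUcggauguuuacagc
miR-17* (miR-17-3p): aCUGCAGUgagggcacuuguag
let-7b* and let-7f* share the seed and differ at 2 of 22 positions, C9U and C13U, counted from 1 at the 5′ end with the base of let-7b* first. miR-30a* and miR-30e* share another seed and differ at 1 position, G18A, with the base of miR-30a* first. Probes for such close sequences may share target RNA, which was not tested. The star arms of let-7b, miR-30e and miR-17 sit at chr15:85707379-85707400 (+), chr4:120772618-120772639 (-) and chr14:115043721-115043742 (+).

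Star entries were mostly undetected in oocytes. The scanner software called 4 of the 112 detected on 1 array or more (3.57%) and 0 on all 6 arrays, beside 101 of 453 other mouse entries (22.3%) on at least 1 array and 53 on all 6. Mouse entries named -3p or -5p, whose arms were not ranked in that database release, stood between them with 17 of 129 (13.2%). The main arms of the same hairpins were detected for 39 of 101 (38.6%). The lowest detected raw signal was 1.40 to 3.64 on the 6 arrays. The call is no fixed cut in signal: let-7b* was not called at 5.60 on young large array 2, where the lowest detected was 1.40. An undetected star entry is therefore not shown to be absent.

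All of the detected star entries were seen in large oocytes. Young large array 1 detected 3 and array 2 detected 4, both aged large arrays detected 2, and both young small arrays detected 0. The young large arrays were also the brightest: the factor that put the arrays on one scale was 1.94 and 1.48 (young large), 0.954 and 1.06 (aged large) and 0.582 and 0.589 (young small). Detection of the other mouse entries moved the same way, with 96 and 90, 74 and 84, and 54 and 57. Star detection and array brightness therefore cannot be told apart. In these arrays fewer oocytes in a pool and less microRNA per oocyte cannot be told apart either.

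**Figure D1:**
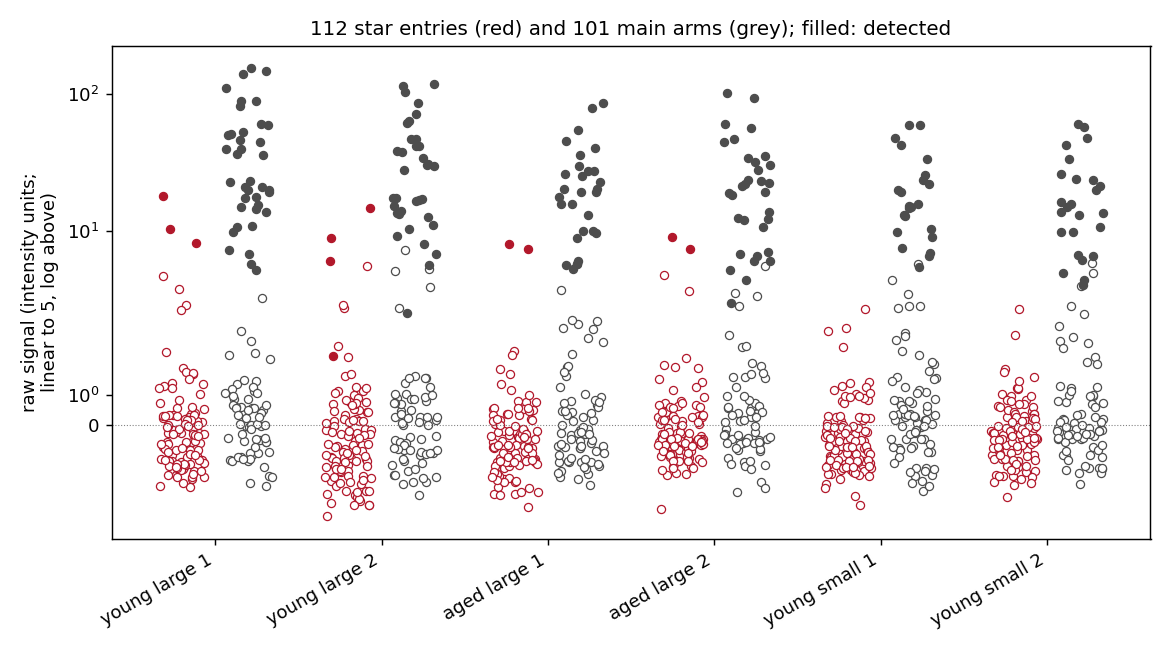
Raw signal (intensity units, linear to 5 and logarithmic above) of the 112 star entries in red and the 101 main arms in grey on each of the 6 arrays, with filled points for entries called detected. The star entries lie around 0 on every array, with 3, 4, 2, 2, 0 and 0 of them detected from left to right.

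The 108 star entries that no array detected lay around background. Their raw signals, from which the scanner software had subtracted the background, had medians between -0.70 and -0.28 on the 6 arrays. Between 68 and 82 of the 112 star entries were at or below 0 on an array. The highest raw signal on any array was at most 2 for 101 of the 112, and 45 were at or below 0 on all 6. Only 4 went over 5 on any array: miR-140*, miR-150*, miR-467b* and the undetected let-7b*.

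A bright main arm did not bring a detected star entry with it. Of the 101 hairpins with both entries, 37 had only the main arm detected, 2 only the star entry, 2 both and 60 neither. Among 23 hairpins whose main arm was detected on all 6 arrays, 22 had no star detection. The exception is miR-712*. The star entries of these 23 hairpins had median raw signals between -0.68 and 0.18, and those of the 62 hairpins with an undetected main arm had medians between -1.0 and -0.41. On each array the median of the 23 was the higher. Levels of different probes are not compared, because each probe has its own affinity, so this is a description.

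The main arms miR-92a, miR-16, miR-20a and let-7f were among the 10 brightest entries. The star entries of the first 3 stayed at background, while let-7f*, described further on, reached 4.19 times its error without being called detected. miR-92a, of the proliferation-linked miR-17-92 cluster, had raw signals of 148 and 119 on arrays of young large oocytes, 86.0 and 93.7 on those of aged mice, and 59.1 and 60.1 on the young small arrays. Its star entry miR-92a* had 0.31 and -0.68, -0.73 and -0.38, and -0.40 and -0.53 in the same order. None of the 6 star values exceeded its deposited error, which was 0.983 to 1.18. miR-20a, of the same cluster, had raw signals from 40.5 to 111, while miR-20a* was below 0 on all 6 arrays, from -1.31 to -0.70. miR-16, which restrains the cell cycle, had 42.3 to 139, while miR-16* ranged from -1.63 to 1.0. All 3 main arms were brightest in raw signal on the young large arrays and, after scaling, highest on the young small ones. The scaled means were 78.1, 89.3 and 102 for miR-92a, 57.2, 43.5 and 81.6 for miR-20a, and 70.7, 57.3 and 72.7 for miR-16 (young large, aged large and young small, n = 2 each). Their star entries were undetected on every array.

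miR-140* had the highest raw signal of any star entry. The miR-140 hairpin is known from cartilage, where it supports skeletal growth, and it is transcribed within Wwp2, an E3 ubiquitin ligase gene. miR-140* had raw signals of 18.1 and 14.7 on arrays of young large oocytes, 7.39 and 7.46 on those of aged mice, and 3.18 and 3.83 on the young small arrays, with deposited errors from 1.43 to 2.19. The 3 groups did not overlap in raw signal, which also carries array brightness, and both young small values were undetected. Scaled signals of miR-140* were 9.61 ± 0.446, 7.40 ± 0.504 and 5.98 ± 0.729 in the same order (SD, n = 2 each). Scaling thus kept the order of the groups and narrowed the gaps between them.

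Its main arm miR-140 was detected only on the young large arrays. Raw signals were 15.1 and 13.4 on arrays of young large oocytes, 4.42 and 5.63 on those of aged mice, and 3.91 and 4.56 on the young small arrays. Both arms of the hairpin were therefore highest in raw signal in young large oocytes. Scaled signals of miR-140 were 8.40 ± 0.857, 4.97 ± 0.480 and 7.23 ± 0.727 (SD, n = 2 each) in the same order, with the aged and small groups undetected. The log2 ratio of the star to the main-arm signal, which no scaling changes, stood at 0.25 and 0.14 (young large), 0.74 and 0.41 (aged large) and -0.30 and -0.25 (young small). The ratio differed between groups by 0.38 in ageing and 0.47 in growth, without overlap. With 2 arrays against 2 an exact permutation test cannot go below p = 0.33, and only the young large arrays detected both arms, so no difference in arm usage is shown.

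**Figure D2:**
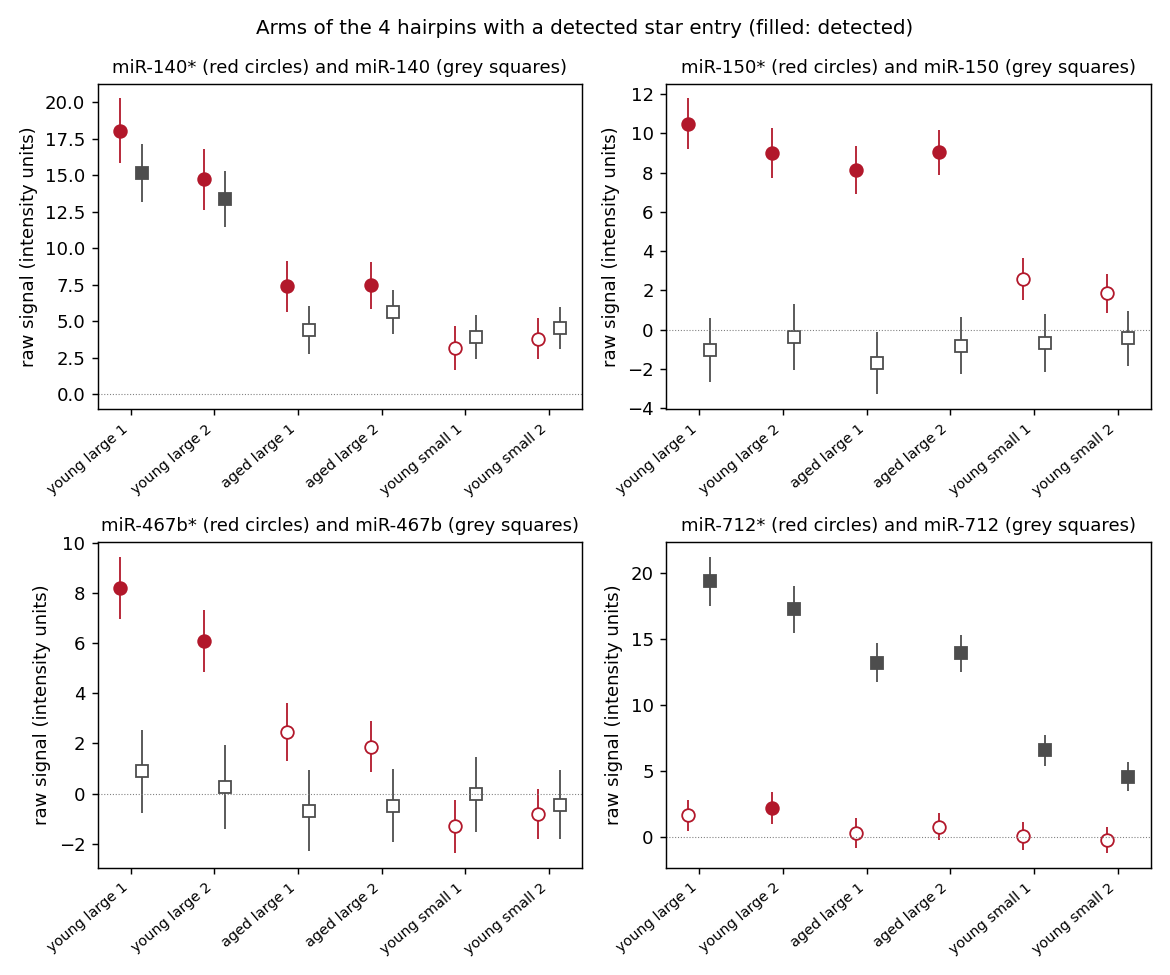
Raw signal with its deposited error (intensity units) of the star entry (red circles) and the main arm (grey squares) of the 4 hairpins with a detected star entry, on the 6 arrays. Filled points were called detected: miR-140* and miR-150* on the 4 arrays of large oocytes, miR-467b* on the young large arrays and miR-712* on 1 array.

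miR-150* was detected in large oocytes while its main arm was not detected at all. miR-150 is known as a microRNA of mature lymphocytes, where it targets the transcription factor Myb. miR-150* had raw signals of 10.5 and 9.02 on arrays of young large oocytes, 8.15 and 9.05 on those of aged mice, and 2.56 and 1.85 on the young small arrays, with errors from 0.992 to 1.29. In raw signal the young and aged large groups overlapped, and both lay above the undetected small group. miR-150 was below 0 on all 6 arrays, from -1.70 to -0.38. Of 7 blood cell markers on the array miR-223 alone was detected, and the summed raw signal of the list was 41.2 to 51.8 (young large), 50.7 to 60.6 (aged large) and 6.63 to 6.76 (young small). After scaling, the sums were 26.6 to 27.7, 53.2 to 57.2 and 11.2 to 11.6 in the same order. The list, in which only miR-223 was detected, was thus highest in aged large oocytes after scaling. In raw signal its young and aged large groups overlapped. Likewise miR-150* was highest in aged large oocytes after scaling and overlapped between these groups in raw signal. miR-150, which is on that list, was undetected on every array. The part of blood cells in the miR-150* signal was not tested.

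miR-467b* was also detected without its main arm. The miR-467b hairpin lies within the span of Sfmbt2, a Polycomb gene whose large intron carries a rodent cluster of related hairpins. miR-467b* had raw signals of 8.21 and 6.08 on arrays of young large oocytes, 2.45 and 1.87 on those of aged mice, and -1.31 and -0.82 on the young small arrays, with errors from 0.983 to 1.23. It was detected on the young large arrays alone. The 3 groups did not overlap in raw signal, which also carries array brightness, so this is a description. Its main arm miR-467b stayed between -0.68 and 0.88. Among 25 array entries of the miR-297, miR-466, miR-467 and miR-669 families, which are known from this cluster and its relatives, only miR-467b* and miR-466f-3p were detected. miR-466f-3p had 4.66 and 3.61 on arrays of young large oocytes, 1.40 and 2.50 on those of aged mice, and 0.93 and 0.80 on the young small arrays. Both were highest in raw signal in young large oocytes.

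miR-712* was called detected on young large array 2 alone. miR-712 is known to arise from precursor ribosomal RNA rather than from a classical microRNA gene. miR-712* had raw signals of 1.67 and 2.26 on arrays of young large oocytes, 0.36 and 0.81 on those of aged mice, and 0.14 and -0.17 on the young small arrays. The detected value of 2.26 was 1.88 times its deposited error. The main arm miR-712 was detected on all 6 arrays, with 19.4 and 17.3, 13.2 and 13.9, and 6.60 and 4.60. The log2 ratio of star to main arm was -3.54 and -2.93 in young large and -5.18 and -4.10 in aged large oocytes. Both arms were detected together on 1 array, so the difference of -1.41 between these groups rests on signals near background.

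Some undetected star entries came close to a call. let-7b* had raw signals of 3.96 and 5.60 on arrays of young large oocytes, 2.31 and 4.94 on those of aged mice, and 3.82 and 2.95 on the young small arrays, and its signal was 2.02 to 4.65 times the deposited error. The groups overlapped. let-7f*, with the same seed, had 3.77 and 3.95, 1.84 and 4.42, and 3.09 and 1.21, or 1.23 to 4.19 times the error. These 2 were the only undetected star entries over 3 times the error on any array, above the ratio at which miR-712* was called. The main arms let-7b and let-7f, of the family that accumulates as cells differentiate, were detected on all 6 arrays.

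miR-17*, of the miR-17-92 cluster, had 4.88 and 3.84 on arrays of young large oocytes against 1.35 and 1.51 on those of aged mice and 1.43 and 0.84 on the young small arrays. Its main arm miR-17 was detected on young large array 1 alone, at 5.76, with the other 5 values between 0.93 and 4.55. miR-30e* had 4.45 and 2.61 on arrays of young large oocytes, 0.54 and 1.90 on those of aged mice, and 1.38 and 1.03 on the young small arrays. miR-30a*, with the same seed, had 2.41 and 1.27, 0.22 and 1.43, and 1.24 and 0.46. For miR-17* and miR-30e* the young large arrays were above the other 4 in raw signal, while those of miR-30a* overlapped them. The main arms miR-30e and miR-30a were detected on all 6 arrays, at 13.9 to 59.2 and 10.4 to 44.5. Scaled signals of miR-30e* overlapped between the groups, from 0.56 to 2.38. Those of miR-17* were 2.51 and 2.59 (young large), 1.42 and 1.42 (aged large) and 2.46 and 1.42 (young small).

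**Figure D3:**
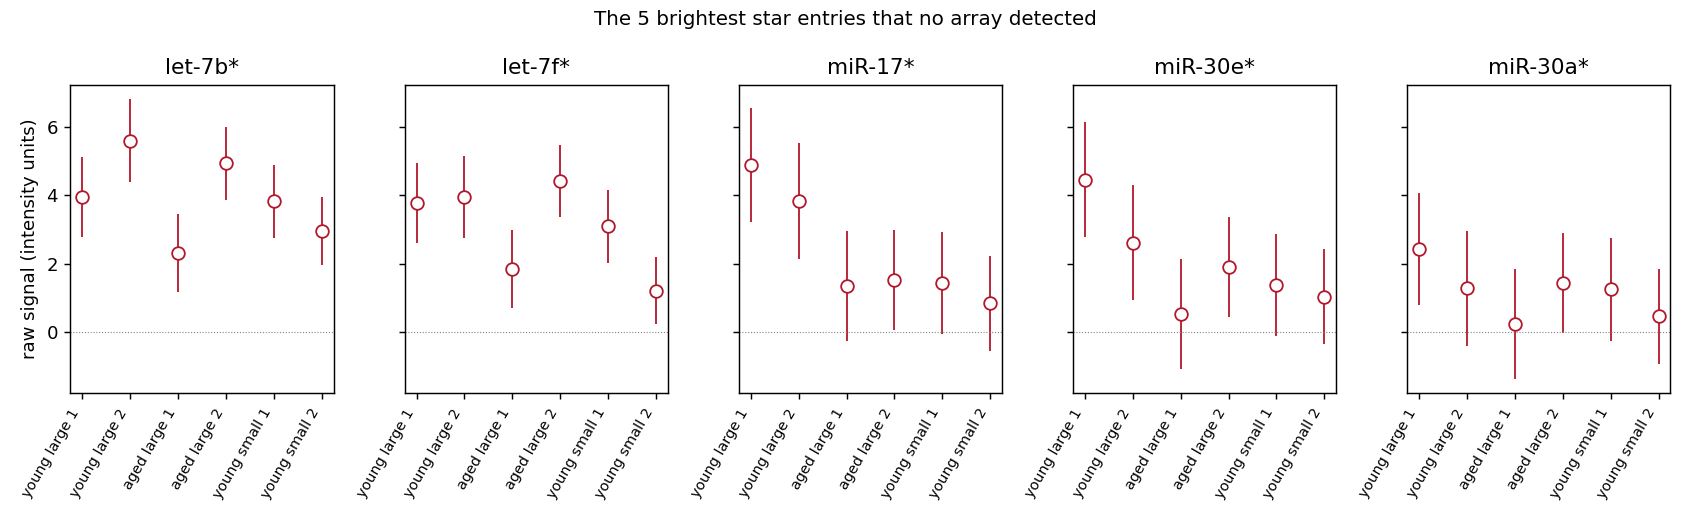
Raw signal with its deposited error (intensity units) of the 5 brightest star entries that no array detected, on the 6 arrays. let-7b* and let-7f* overlap between the groups, while miR-17* and miR-30e* are highest on the young large arrays.

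Other star entries are best read by family. The 7 let-7 star entries ranged from -1.83 to 5.60 in raw signal over all arrays, and all 5 of their main arms on the array were detected throughout. The 8 from the miR-17-92 cluster or its paralogs ranged from -1.67 to 4.88, with 8 of 8 main arms detected on some array. The 5 star entries of the miR-30 family, which is linked to differentiation, reached 4.45.

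For embryonic families the star entries were at background throughout. The miR-290 to miR-295 cluster, abundant in early embryos, had 3 star entries, miR-293*, miR-294* and miR-295*, between -1.38 and 0.59, while their 3 main arms were each detected on some array and reached 50.8. The 3 star entries of the pluripotency-linked miR-302 cluster stayed between -1.23 and 0.29, and their 3 main arms were undetected, with a highest signal of 1.27. The 4 star entries of the epithelial miR-200 family lay between -1.94 and 0.31, with 2 of 4 main arms detected. The 3 star entries of the miR-29 family, known to target collagen and DNA methyltransferase messages, reached 1.76, and the 3 of the miR-15 and miR-16 family reached 1.22. From the imprinted Dlk1-Meg3 region, active in brain and placenta, 0 of 13 star entries and 0 of 13 main arms were detected, and the highest star signal was 2.19, of miR-433*.

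The comparison of aged with young large oocytes addresses reproductive ageing. A fold change needs signals above a common floor, set at a scaled signal of 6.17, and an entry was tested where both arrays of 1 compared group detected it and at least 1 of the 4 arrays exceeded the floor. Of the 112 star entries, 2 could be tested, miR-140* and miR-150*, which are those bright enough in large oocytes to pass the filter. miR-140* fell in aged oocytes (log2 change -0.38 ± 0.07, SE; limma, adjusted p = 0.0158), and was lower on both aged arrays than on both young ones. miR-150* had a fitted log2 change of 0.47 ± 0.03 (SE; limma, adjusted p = 0.00111) relative to the scaling set. Its scaled signals were 5.40 and 6.08 in young large and 8.54 and 8.54 in aged large oocytes. Both young values lay under the floor. It thus passed the filter only through the aged group, where it was high, so this p is no support for a rise. Among markers of other cells in the same fit, miR-223 of the blood list rose by 1.11 ± 0.16 (SE; limma, adjusted p = 0.00737). Of the granulosa list miR-202-3p rose by 0.51 ± 0.13 (SE; limma, adjusted p = 0.0374). miR-21 (-0.03; limma, adjusted p = 0.822) and miR-212 (0.45; limma, adjusted p = 0.344) of that list did not pass. Their part in the change of miR-150* was not tested. Both star entries passed, 1 in each direction, but 47.5% of the 80 entries tested passed too (25% higher and 22.5% lower). The count therefore says nothing about star entries as a class. The 2 compared groups did not overlap for 73.8% of the entries tested.

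Neither call was firm. miR-140* kept its sign under all 23 alternatives and lost the call under 7. Among these was a floor over the 4 arrays compared (limma, adjusted p = 0.0561), added after the data were seen. Others were the fits without young large array 2 (log2 change -0.33) and without aged large array 2 (-0.31). Over all alternatives the adjusted p by limma ran from 2.44e-06 without scaling to 0.279 without a filter. Without scaling, array brightness stays in the change, and the entries named in this comparison shared an SE of 0.22. miR-150* kept its call under 16 of 23 alternatives, lost it under 6 and turned its sign under 1. Both its young large values lay under the floor although detected, which narrows the standard error. With the floor over the 4 arrays compared its log2 change was 0.58 ± 0.18 (SE; limma, adjusted p = 0.0594). It was 0.15 with scaling to the total signal (limma, adjusted p = 0.192) and 0.19 with control entries (limma, adjusted p = 0.191). Without scaling its sign turned, to -0.18 ± 0.22 (SE, limma, adjusted p = 0.471), the highest adjusted p over all alternatives. The lowest by limma, 9.35e-07, came without a filter, where its SE was 0.0005.

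The main arm miR-140 had a fitted log2 change of -0.44 ± 0.11 (SE) with an adjusted p of 0.0308 by limma. It entered the fit only through the young large group, where it was high and detected, while both aged values lay under the floor, so this p is no support for a fall. The mean of its young arrays was 1.69-fold that of its aged ones. Each aged array counted at its lowest detected signal or the entry's own, whichever was higher. Both own scaled signals, 4.63 and 5.31, were higher than the lowest detected, 2.95 and 1.66, so 1.69 is no lower limit. miR-140 was undetected in aged oocytes, so the fold rests on signals without a call. It missed the threshold under 5 of 23 alternatives. Among them were the fits without young large array 2 (log2 change -0.34), without aged large array 1 (-0.44) and without aged large array 2 (-0.44). Over all alternatives its adjusted p by limma ran from 5.57e-10 without scaling to 0.573 without a filter. miR-712 had 0.33 ± 0.20 (SE) and did not pass, and its sign turned under 3 scalings (unscaled -0.43, total signal -0.096, control entries -0.060). miR-467b* could not be tested at this floor, since its scaled signals of 4.22 and 4.10 in young large oocytes lay under it. By the same kind of ratio it was 1.82-fold higher in young than in aged large oocytes. That is no lower limit either, as aged large array 2 counted at its own undetected signal. With the floor over the 4 arrays compared its log2 change was -0.50 ± 0.06 (SE; limma, adjusted p = 0.00503). It entered that fit only through the young large group, and both aged values lay under the floor. This p is therefore no support for a fall. The log2 change was -0.97 with a lower floor, -0.72 with a pseudocount of 1 and -0.96 without scaling. With scaling to the total signal, where the floor reached 5.52, it was -0.0068 (limma, adjusted p = 0.958).

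The comparison of young large with young small oocytes addresses growth. Of the star entries miR-140* alone could be tested. Its fitted log2 change was 0.60 ± 0.08 (SE), higher in large oocytes, with an adjusted p of 0.00278 by limma. It entered the fit only through the young large group, where it was high, so the p is a description and no support for a rise. By the same kind of ratio it was 1.57-fold higher in large oocytes. That is no lower limit, as young small array 2 counted at its own undetected signal. miR-140* was undetected on both small arrays. It passed in the same direction under 22 of 23 alternatives and missed the threshold when no filter was set (limma, adjusted p = 0.097). The lowest adjusted p by limma, 3.48e-18, came without scaling. There array brightness stays in the change, 90 of 93 entries were called higher, and the entries named in this comparison shared an SE of 0.22. In the reported fit 52.7% of all 74 entries tested passed (25.7% as higher, 27% as lower) and the groups did not overlap for 82.4%. The main arm miR-140 had 0.22 ± 0.11 (SE, limma, adjusted p = 0.137) and did not pass, but did under 4 scalings, up to 1.75 without scaling. Its adjusted p by limma ranged over all alternatives from 1.7e-13, without scaling, to 1. The difference between the arms was not tested. miR-712 had 0.20 ± 0.19 (SE) and did not pass, but did under 2 scalings, at 1.73 without scaling and 0.63 with the total signal. Its sign turned without young small array 2 (-0.098).

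miR-150* and miR-467b* gave no fold for growth. The lowest detected scaled signal was 5.76 and 6.17 on the small arrays, above the young large signals of miR-467b* (4.22 and 4.10) and about level with those of miR-150* (5.40 and 6.08). A microRNA at the large-oocyte level of either could have gone undetected in small oocytes. Settings that let them into the fit, again through the young large group, gave unlike values. The log2 change of miR-150* was 1.42 without scaling, 0.62 with a lower floor, 0.51 with a pseudocount of 1, 0.43 on the percentile of all entries, 0.34 on total signal and 0.15 on control entries. It was 0.0094 with star entries left out of the scaling, and 0.0057 and 0.024 without young small array 1 or 2. That of miR-467b* was 2.37 with the pseudocount, 2.14 with the lower floor, 0.96 without scaling and 0.0068 with the total signal.

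**Figure D4:**
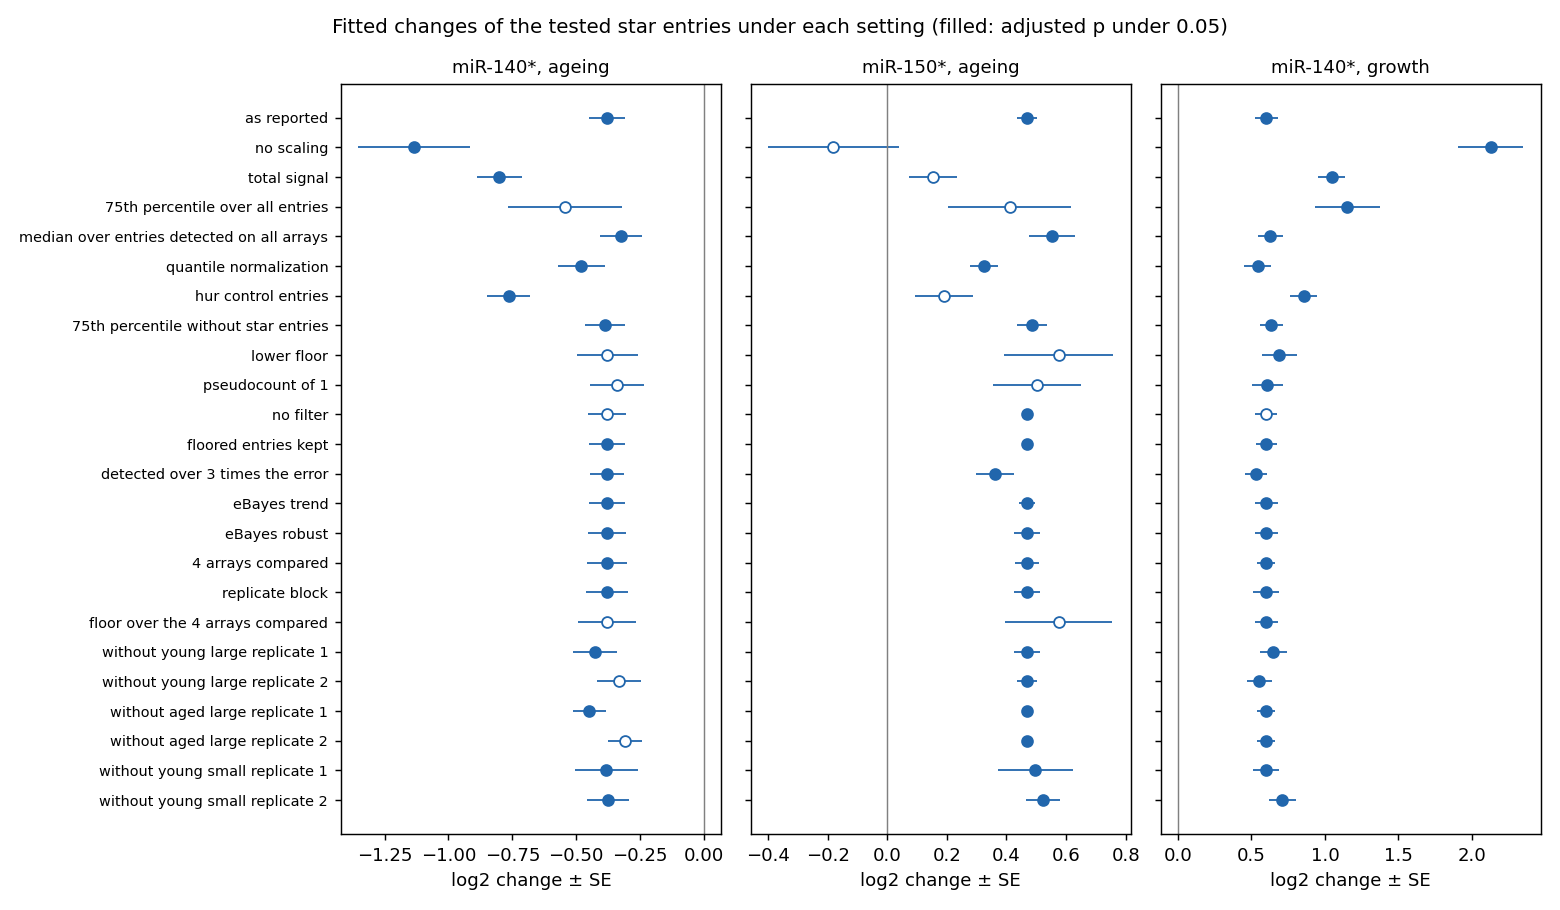
Fitted log2 change with its SE of miR-140* and miR-150* in ageing (aged minus young large) and of miR-140* in growth (large minus small) under each processing setting; filled points have an adjusted p under 0.05. miR-140* keeps its sign in both comparisons, from -1.13 to -0.31 and from 0.53 to 2.13, while miR-150* ranges from -0.18 to 0.58.

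The main arms of the star hairpins moved in both directions. In ageing 31 of 101 could be tested, of which 5 were called higher and 13 lower. Their median log2 change was -0.15 beside 0.08 over all 80 entries tested (20 higher, 18 lower). In growth 31 could be tested, of which 8 were called higher and 12 lower, with a median of -0.10 beside -0.11 over all 74 (19 higher, 20 lower). In both comparisons the calls include entries above the floor only in the group where they were high, as miR-140 was in ageing. The counts are therefore a description and no support for a rise or fall. The split of directions depends on the scaling, as given with the limits. Entries named -3p or -5p had 5 higher and 0 lower of 12 tested in ageing, and 3 higher and 2 lower of 10 tested in growth.

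Markers of other cell types were read beside the star entries. Of 6 granulosa cell markers miR-21, miR-212 and miR-202-3p were detected, with a summed raw signal of 65.9 to 86.7 on arrays of young large oocytes, 54.2 to 63.9 on those of aged mice and 30.3 to 32.2 on the young small arrays. All 4 stroma markers and both endothelial markers on the array were undetected, with summed raw signals of at most 0.331 and 1.40. The miR-290 to miR-295 cluster served as the oocyte and early embryo list, with 7 of its 9 arms detected. After scaling, the granulosa sums were 44.4 to 44.6 (young large), 51.1 to 67.0 (aged large) and 51.4 to 55.3 (young small), an order unlike the raw one. In sums, values under 0 counted as 0. The part of granulosa cells in the star signals was not tested.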

How the data were processed

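The scanner software was Feature Extraction 9.5 from Agilent, as the submitters' processing notes have it. Per the file headers, each array file gives every microRNA a linear total intensity, the error of that intensity, a detection call and the fraction of spots kept as inliers; these deposited intensities were background-subtracted and not normalized between arrays. Per the labels the array design follows miRBase 10.1. The build behind the design is not given in the sources used here. The deposited series table repeats these intensities with values under 10 set to 0 (0 values differed, relative tolerance 0.001).

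The 23 control entries were left out. Each array was divided by its 75th percentile over the 56 entries that every array detected (factors set to a geometric mean of 1), floored at 6.17 and put on the log2 scale. Entries at the floor on all 4 arrays compared (17 in ageing, 20 in growth) were left out, because they carry no spread. The 6 arrays together were fitted with 1 mean for each group (limma 3.58.1, lmFit and eBayes; R 4.3.3), with 3 residual degrees of freedom, two-sided tests, Benjamini-Hochberg adjustment over all entries tested and a threshold of 0.05. The number of arrays limits the precision. The fit was also run on simulated arrays, in which only entries detected on all 6 arrays were given a change. No star entry is among these, so the simulation does not bear on the star fits.

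Named entries are each star entry detected on some array, the 5 brightest undetected ones, those with a main arm among the 10 brightest entries, and their main arms; miR-466f-3p and miR-433* were named after their values were seen. Members, lists and rules were chosen with earlier results of these data known. Alternatives covered scaling, floor, filter, detection, variance model, the replicate number as a block and each array left out; a floor over the 4 arrays compared was added after the data were seen. Star arms were matched by their later names to RefSeq on GRCm38.p6. Figures were drawn with matplotlib 3.10.9.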

Additional observations from a re-analysis of the deposited data

How the results depend on the processing

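Scaling and detection set most of what can be said. Of the ageing and growth comparisons over all entries, with 38 and 39 calls, the count moved beyond 1.5 times without scaling (62 and 90), with the percentile over all entries (10 and 23) and without a filter (12 and 1), and in ageing with entries detected on all 6 arrays (25). Leaving out 1 array gave 31 to 36 calls in ageing and 15 to 41 in growth, the lowest without young small array 1. The split of higher to lower calls, 20 to 18 in ageing, became 5 to 57 unscaled, 6 to 33 on the total signal, 6 to 28 on hur control entries, 9 to 18 after quantile normalization and 24 to 14 on the median. In growth 19 to 20 became 90 to 0, 31 to 4, 24 to 6, 22 to 13 and 19 to 20 in the same order, then 23 to 0 on the percentile over all entries, and 10 to 16 for the series table. Without scaling the median log2 change moved by -0.65 in ageing and 1.53 in growth.

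The number of star entries detected on at least 1 array was 4 (young large), 2 (aged large) and 0 (young small). Where detection meant over 3 times the deposited error, the aged large group had 4 and the young small group 1. By the series table the young large group had 2 and the aged large group 0. miR-150* in ageing turned to -0.18 without scaling. miR-712 turned in ageing to -0.43 without scaling, -0.096 with the total signal and -0.060 with hur entries, and in growth ran from -0.098 to 0.50 with 1 array left out. The differences between groups in the log2 star to main-arm ratio were checked for miR-140* in both comparisons and for miR-712* in ageing. They kept their sign with a pseudocount and with each compared array left out. Replicate numbers did not pair the arrays: same-numbered deviations correlated with r = 0.15, -0.16 and 0.03 over 56 entries, and a replicate block gave 29 calls in ageing and 34 in growth. The series table could not test any star entry. The cause of these changes was not tested.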
